A study of Mus musculus with 3 samples.

Results

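The retinoid X receptor genes are 3 in number in the mouse, Rxra, Rxrb and Rxrg, out of 21887 protein-coding genes on named chromosomes in the RefSeq annotation of the same build (mm10, GRCm38.p6). They were chosen by name, and every RXRA peak that overlapped the gene or the 100 kb on either side of it was taken as a peak of that locus. The peaks come from CUT&RUN, in which an antibody, here against RXRA, tethers a nuclease to chromatin and the DNA it releases is sequenced. The HSC library was made from 10000 haematopoietic stem cells, taken as the CD48-CD150+ fraction of Lin-cKit+Sca1+ marrow cells. The MPP libraries, 2 in number, were each made from 50000 multipotent progenitors, the CD150- fraction of the same gate, and their replicates 1 and 2 are called MPP1 and MPP2. The labels do not say that these replicates came from separate pools of mice. All 3 libraries came from bone marrow of C57BL/6 mice of about 10 months, pooled from 3 or 4 animals, and all cells were exposed to the RXR agonist bexarotene at 1 mM for 1 h before the assay. The genotype label reads VavCre+; WT, and the growth protocol names Rxrabfl/fl (WT) mice. Vav-Cre acts in blood cells, and Rxrabfl/fl is read here as floxed Rxra and Rxrb. All 3 libraries carry the same labels, which do not settle whether Cre and the floxed alleles were present together. Whether any segment of those genes was missing in the sorted cells was not tested. A library without the drug or with a control antibody was not used here, and peak lists carry no RNA levels, so the sorted cell types were not checked against marker expression. With 1 HSC library, the difference between HSC and MPP has no replicate check and no test is given.

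Retinoid X receptors are nuclear receptors that bind 9-cis retinoic acid and synthetic rexinoids such as bexarotene, and they serve as the common partner of the retinoic acid, vitamin D, thyroid hormone, LXR and PPAR receptors. These pairs bind repeats of the hexamer AGGTCA or close variants of it. Rxra and Rxrb are the forms commonly found in blood cells, while Rxrg is best known from muscle and brain. Rxrb lies inside the major histocompatibility complex (MHC), and its product was first isolated as H-2RIIBP, a protein that binds the region II element of MHC class I gene promoters; that older name is kept among the gene's synonyms in the RefSeq table.

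Letters upstream of the receptor genes are shown because none of them lay under a peak in any library, and those of H2-K1, B3galt4 and AA388235, in the Rxrb locus, because a peak of both MPP libraries covered their starts. H2-K1 is an MHC class I gene. Each run gives the 250 bases before a listed start, 5′ to 3′ on the strand of the gene, from RefSeq (GRCm38.p6). Capitals mark the hexamers AGGTCA and GGGTCA on either strand, so that TGACCT and TGACCC are the same hexamers read from the other strand.
Rxra, internal start, chr2:27709042-27709291, plus strand: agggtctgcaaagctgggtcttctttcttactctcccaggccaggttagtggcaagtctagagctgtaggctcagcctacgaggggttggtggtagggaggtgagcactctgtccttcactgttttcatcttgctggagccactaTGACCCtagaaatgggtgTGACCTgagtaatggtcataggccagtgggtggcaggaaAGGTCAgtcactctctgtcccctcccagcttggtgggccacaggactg
Rxrb, first start, chr17:34031562-34031811, plus strand: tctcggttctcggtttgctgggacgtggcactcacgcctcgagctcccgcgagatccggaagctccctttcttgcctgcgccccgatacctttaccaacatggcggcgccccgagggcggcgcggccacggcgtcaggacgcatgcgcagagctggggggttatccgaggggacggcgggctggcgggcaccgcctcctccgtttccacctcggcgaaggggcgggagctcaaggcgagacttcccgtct
Rxrg, first start, chr1:167598112-167598361, plus strand: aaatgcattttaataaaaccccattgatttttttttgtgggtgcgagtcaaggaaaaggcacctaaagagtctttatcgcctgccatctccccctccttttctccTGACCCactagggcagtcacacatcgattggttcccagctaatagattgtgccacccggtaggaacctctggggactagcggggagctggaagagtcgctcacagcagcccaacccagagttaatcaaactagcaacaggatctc
H2-K1, chr17:34000348-34000597, minus strand: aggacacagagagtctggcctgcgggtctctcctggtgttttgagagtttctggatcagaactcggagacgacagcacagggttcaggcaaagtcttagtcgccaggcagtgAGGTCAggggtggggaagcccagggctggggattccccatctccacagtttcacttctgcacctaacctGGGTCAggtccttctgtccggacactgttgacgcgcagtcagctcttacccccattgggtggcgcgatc
B3galt4, chr17:33951489-33951738, minus strand: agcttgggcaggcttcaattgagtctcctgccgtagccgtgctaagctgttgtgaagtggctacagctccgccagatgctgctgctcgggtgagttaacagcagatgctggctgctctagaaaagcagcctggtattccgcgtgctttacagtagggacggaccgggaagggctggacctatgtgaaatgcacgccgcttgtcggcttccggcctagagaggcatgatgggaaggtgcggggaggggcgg
AA388235, chr17:33981242-33981491, plus strand: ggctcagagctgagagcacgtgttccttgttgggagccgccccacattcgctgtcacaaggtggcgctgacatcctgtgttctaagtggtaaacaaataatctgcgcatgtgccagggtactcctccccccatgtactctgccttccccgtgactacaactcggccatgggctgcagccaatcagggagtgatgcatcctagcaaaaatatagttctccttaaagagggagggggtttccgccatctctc

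Of 32851 such windows in the table, 14.02% held AGGTCA and 11.65% held GGGTCA. The windows of the first Rxra and Rxrb starts held neither. That of the first Rxra start is not printed. It lies inside the annotated gene span, as does the printed window of the internal Rxra start. The windows of B3galt4 and AA388235 held neither, and that of H2-K1 held 1 of each, so a peak of both MPP libraries stood over windows with and without a hexamer. The annotated span of H2-K1 likewise reaches past the start used here. The internal Rxra start had 3 hexamers, and the nearest peak of any library, in MPP1, lay 5593 to 5650 bp from them. The first Rxrg start held 1, on the strand opposite to the gene, 410 bp from the nearest MPP1 peak. The second Rxrg start, not printed, also held 1, an AGGTCA on the strand of the gene, 19312 bp from the nearest MPP1 peak. The second Rxrb start, not printed, held neither hexamer. Direct repeats of these hexamers spaced by 1, 4 or 5 bases (DR1, DR4 and DR5, read on both strands, with A or G as the first base) were absent from the windows of the receptor genes, H2-K1, B3galt4 and AA388235. Of all windows, 0.0913%, 0.0335% and 0.0274% held one. These matches describe letters only and are not binding sites.

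The libraries differed in depth. RXRA peaks numbered 4047 in HSC, 29848 in MPP1 and 19570 in MPP2. The genome-wide background, recovered from the authors' fold and p of each peak, was 0.604 fragments in HSC, 2.87 in MPP1 and 1.08 in MPP2. The lowest summit pileup called a peak was 5, 10 and 6 fragments in the same order. A pileup is the number of fragments over the summit. Multiplied by the ratio of backgrounds it gives the pileup that the same signal would have had at the HSC depth, and it is called the HSC-scaled pileup here. Folds are the authors' fold enrichments over local background and are used to rank peaks within a library. Intervals on pileups are exact Poisson at 95% and cover counting error only.

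Rxra, which encodes the receptor that the antibody targets, held 1 site that was a peak in all 3 libraries. Rxra (gene ID 20181) lies on the plus strand of chromosome 2 from 27676445 to 27763319 (86.9 kb), with no other protein-coding gene within 100 kb: Wdr5, a core subunit of histone methyltransferase complexes, ends 139.9 kb before it and Col5a1, a collagen gene, starts 123.1 kb after it. The locus carried 1 peak in HSC, 9 in MPP1 and 2 in MPP2. Of all protein-coding genes, 46.6%, 84.2% and 79.6% had at least 1 peak under the same rule in HSC, MPP1 and MPP2. The median gene had 0, 5 and 3. Among the 1181 genes that likewise had no coding neighbour within 100 kb, 83.2% had fewer peaks than Rxra in HSC, 96.4% in MPP1 and 76.1% in MPP2.

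**Figure D1:**
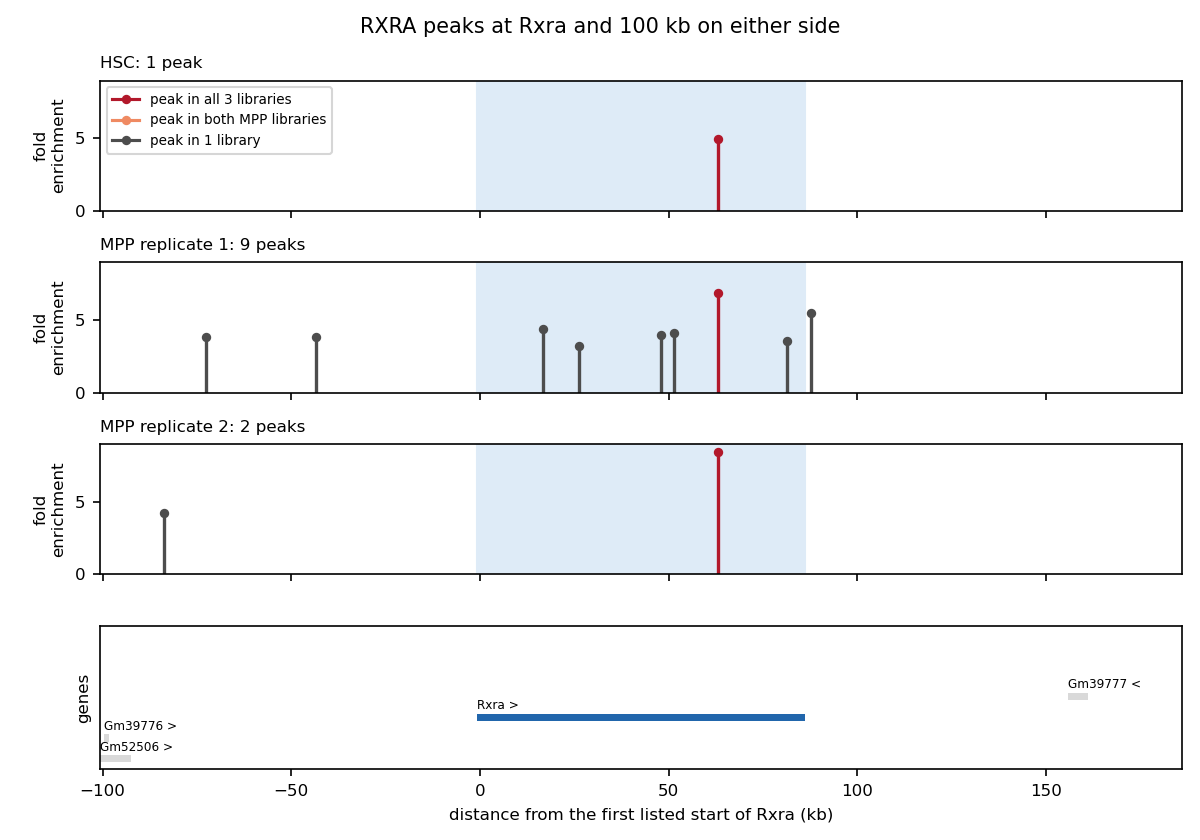
Authors' fold enrichment (vertical axis) of each RXRA peak at its summit, by distance in kb from the first listed Rxra start, in HSC, MPP1 and MPP2, with genes below (arrowheads give strand, the shaded band is Rxra). The 1 HSC peak stands at the site 63.2 kb after the start, where both MPP libraries have their highest peak.

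The shared Rxra site lay inside the gene, 63.2 kb after the first start. Its HSC peak ran from 27740320 to 27740597 with a fold of 4.99 from 7 fragments at the summit (2.81 to 14.4). In MPP1 the peak ran from 27740133 to 27740639, with a fold of 6.87 from 34 fragments at the summit (23.6 to 47.5). In MPP2 it ran from 27740288 to 27740612, with a fold of 8.48 from 22 fragments at the summit (13.8 to 33.3). The HSC peak was nested in both MPP peaks, and the summits of the 3 libraries lay within 38 bp of each other. Within its own list the site stood above 29.8% of peaks in HSC, 92.2% in MPP1 and 90.4% in MPP2. It was among the stronger peaks of both MPP lists and below the middle of the HSC list, in lists of unequal length. Its rank by fold was 2657 in HSC, 2337 in MPP1 and 1874 in MPP2. Over the genome-wide background the ratio of the pileup was 11.6 in HSC (4.66 to 23.9), 11.85 in MPP1 (8.205 to 16.56) and 20.35 in MPP2 (12.75 to 30.81), and these intervals overlap. Scaled to the HSC depth, the pileups of MPP1 and MPP2 came to 7.15 and 12.3 fragments, both inside the interval of the HSC count. An HSC peak that overlapped peaks of both MPP libraries lay inside 7.14% of all protein-coding genes. The annotation table used here holds no exons, so whether the site is intronic was not determined.

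The other 5 peaks inside Rxra were seen in MPP1 alone. Rxra held 6 peaks in that library, a number reached or passed by 1.57% of all protein-coding genes and by 3.49% of the 4386 genes between 0.5 and 2 times its length. The 5 lay 16.7, 26.2, 48.0, 51.3 and 81.4 kb after the first start, with folds from 3.21 to 4.42. The strongest of them, at 16.7 kb (27693782 to 27694042), had a pileup of 22 (13.8 to 33.3). A peak inside the gene was present in 10.8% of all protein-coding genes in HSC, 52.1% in MPP1 and 44.6% in MPP2, and in 16.9%, 73.3% and 62.4% of the 4386 genes of like length. The presence of a peak inside Rxra is thus near the background in the MPP libraries.

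Outside the gene, MPP1 had peaks 71.6 and 42.6 kb before Rxra and 1.7 kb after its end. The last, from 27764970 to 27765216, had a fold of 5.47 from 21 fragments at the summit (13.0 to 32.1), the highest fold in the locus in that library after the shared site. MPP2 had a single further peak, 82.8 kb before the gene, with a fold of 4.27 from 9 fragments at the summit (4.12 to 17.1). No peak outside the shared site recurred in a second library. The 8 peaks of MPP1 alone had HSC-scaled pileups from 2.73 to 4.63 fragments, all below the lowest called in HSC. These are scaled counts without their counting error, and the part of depth in the absence of these peaks from HSC was not tested. Scaled to MPP2 they came to 4.90 to 8.29, and 2 of the 8 fell below the lowest pileup called there. The other 6 scaled to at least the lowest MPP2 pileup, and MPP2 had no peak at their sites.

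No Rxra start was marked. The nearest peak to the first start was 63.1 kb away in HSC, 16.6 kb in MPP1 and 63.1 kb in MPP2. The internal start, 32.1 kb downstream of the first, had its nearest peak 31028 bp away in HSC, 5698 bp in MPP1 and 30996 bp in MPP2. A peak within 1 kb of a listed start was present for 8.57%, 42.1% and 38.0% of 17492 protein-coding genes in HSC, MPP1 and MPP2. In each library taken alone, most genes had no such peak, and neither Rxra nor Rxrb had one in any.

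Rxrb had no peak inside the gene in any library, but sat in the most densely marked of the 3 loci. It is the shortest of the receptor genes (gene ID 20182), on the plus strand of chromosome 17 from 34031812 to 34038403 (6.59 kb). The gene begins 121 bp from the end nearer to it of Slc39a7, which encodes a zinc transporter, and ends 515 bp before Col11a2, a collagen gene. The locus carried 2 peaks in HSC, 18 in MPP1 and 12 in MPP2, in a stretch with 14 other protein-coding genes. Of all protein-coding genes, 80.1%, 97.9% and 96.4% had fewer. Peak number moved with gene number: the 1181 genes with no coding neighbour within 100 kb had medians of 0, 0 and 0, and the 3157 with at least 10 had 1, 10 and 8. Among those 3157 genes, 55.3% had fewer peaks than Rxrb in HSC, 91.95% in MPP1 and 84.1% in MPP2. The part of gene number in the Rxrb counts was not tested.

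**Figure D2:**
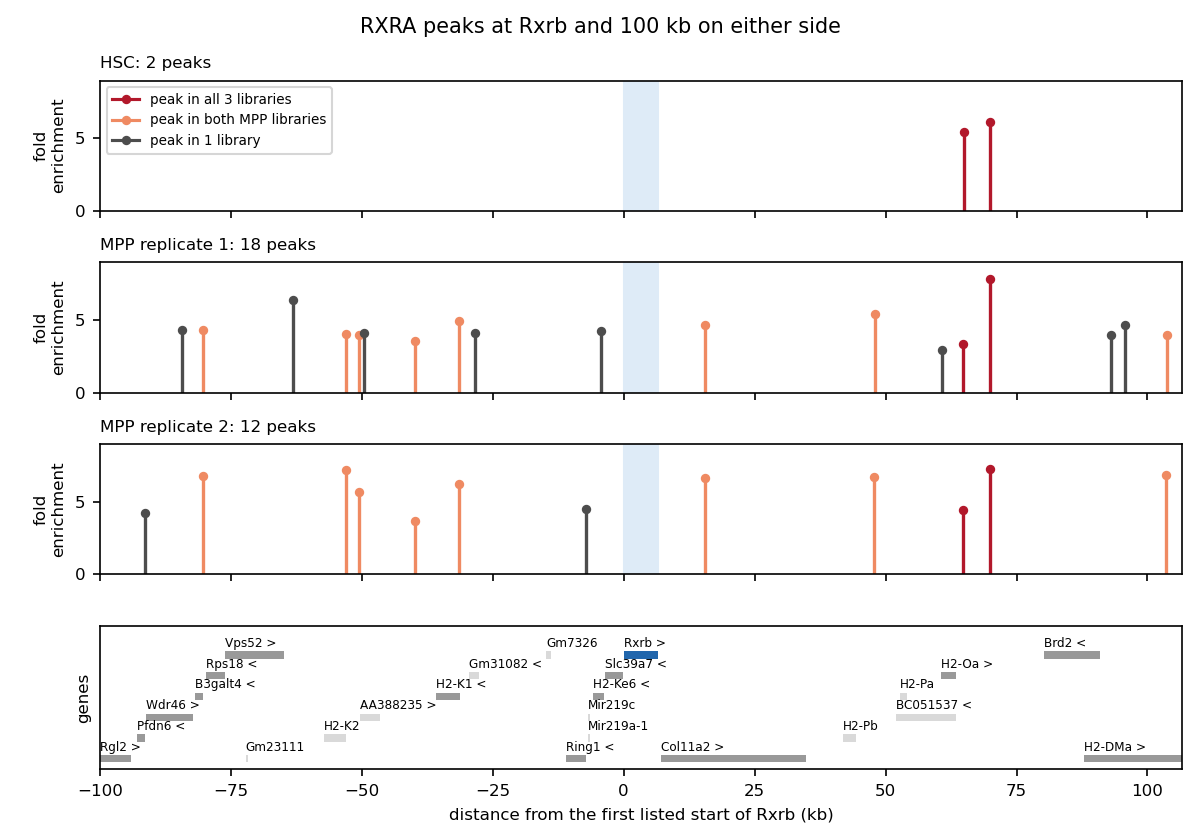
Authors' fold enrichment (vertical axis) of each RXRA peak at its summit, by distance in kb from the first listed Rxrb start, in HSC, MPP1 and MPP2, with genes below (arrowheads give strand, the narrow band is Rxrb). The band holds no peak, the 2 HSC peaks stand at 64.9 and 69.9 kb, and 10 sites are peaks in both MPP libraries.

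The absence of peaks from Rxrb itself is common for a gene of its size. Of 5730 genes between 0.5 and 2 times its length, 92.5% held no peak in HSC, 56.1% none in MPP1 and 61.95% none in MPP2. The nearest peak to the gene was 58.2 kb after it in HSC, 4.1 kb before it in MPP1 and 7.0 kb before it in MPP2. The MPP1 peak, from 34027281 to 34027723 with a fold of 4.24 from 21 fragments at the summit (13.0 to 32.1), overlapped H2-Ke6, a dehydrogenase gene, and lay within 1 kb of Slc39a7. The MPP2 peak, from 34024526 to 34024819 with a fold of 4.49 from 12 fragments at the summit (6.20 to 21.0), covered the start of Ring1, which encodes a ubiquitin ligase of Polycomb complexes. It also lay within 1 kb of the microRNA genes Mir219a-1 and Mir219c. Neither of these 2 peaks recurred in another library.

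Both HSC peaks of the Rxrb locus were shared by all 3 libraries, and both lay in the interval between H2-Oa, an MHC class II gene, and Brd2, which encodes a bromodomain reader of acetylated histones. The site 69.9 kb after the Rxrb start was the stronger. In HSC it ran from 34101664 to 34101935, with a fold of 6.17 from 11 fragments at the summit (5.49 to 19.7). In MPP1 it ran from 34101569 to 34102036, with a fold of 7.82 from 32 fragments at the summit (21.9 to 45.2). In MPP2 it ran from 34101598 to 34102029, with a fold of 7.25 from 21 fragments at the summit (13.0 to 32.1). It stood above 70.4% of the HSC list, 96.4% of the MPP1 list and 79.7% of the MPP2 list, and the 3 summits lay within 10 bp. This was the highest fold of the locus in HSC, in MPP1 and in MPP2.

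The second shared site lay 64.9 kb after the Rxrb start and had a lower fold than the first in each library. Its HSC peak, 34096621 to 34096973, had a fold of 5.43 from 9 fragments at the summit (4.12 to 17.1). The MPP1 peak, 34096634 to 34097008, had a fold of 3.37 from 16 fragments at the summit (9.15 to 26.0). The MPP2 peak, 34096561 to 34096926, had a fold of 4.45 from 14 fragments at the summit (7.65 to 23.5). It ranked above 46.2% of HSC peaks, 11.8% of MPP1 peaks and 16.3% of MPP2 peaks, in lists of unequal length. Over the genome-wide background its pileup was 14.9 in HSC (6.82 to 28.3), 5.58 in MPP1 (3.19 to 9.05) and 12.95 in MPP2 (7.08 to 21.7). The value of MPP1 was the lowest, and all 3 intervals overlap. The nearest listed start to both shared sites was that of the lncRNA gene BC051537. An HSC peak shared with both MPP libraries was present in the locus of 34.4% of all protein-coding genes; Rxra had 1, Rxrb 2 and Rxrg 0.

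**Figure D3:**
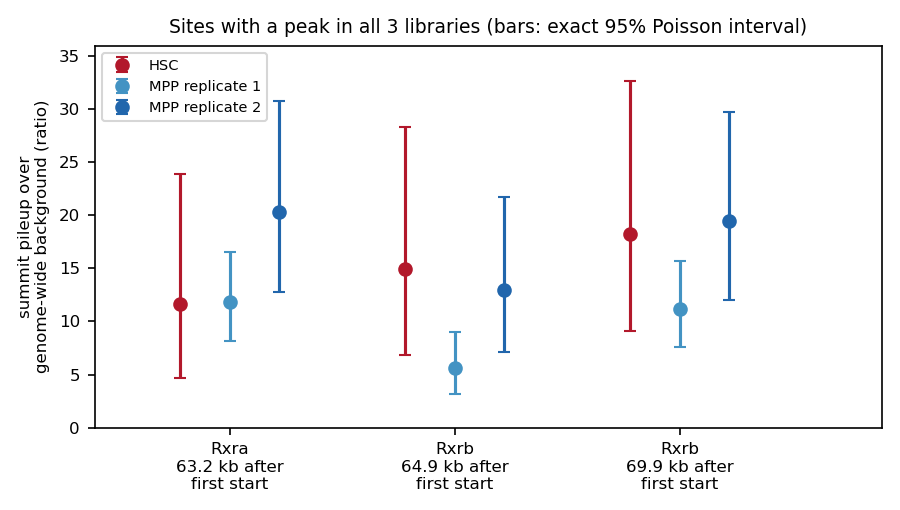
Summit pileup over the genome-wide background (ratio, vertical axis) at the 3 sites of the RXR loci with a peak in all 3 libraries; points are HSC, MPP1 and MPP2, and bars are exact 95% Poisson intervals. At the Rxra site the values are 11.6 in HSC, 11.85 in MPP1 and 20.35 in MPP2, with overlapping bars.

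A further 8 sites of the Rxrb locus were peaks of MPP1 and MPP2 that HSC lacked. Several of them lay on MHC genes and their neighbours. At H2-K1, which encodes a classical class I antigen-presenting molecule, the peak covered the start of the gene in both MPP libraries. It ran from 34000246 to 34000543 in MPP1, with a fold of 4.93 from 24 fragments at the summit (15.4 to 35.7). In MPP2 it ran from 34000204 to 34000475, with a fold of 6.265 from 16 fragments at the summit (9.15 to 26.0). Both summits lay within 6 bp of a listed H2-K1 start. The HSC-scaled pileups were 5.05 and 8.93 fragments, where the lowest pileup called in HSC was 5, and HSC had no peak there. These are scaled counts without their counting error. Of the 10 MPP1 peaks of the locus shared with another library, which include the 2 sites that HSC called, 8 scaled below that HSC pileup. These are not the same as the 8 sites that HSC lacked. Among them is the site 64.9 kb after the Rxrb start, which scaled to 3.37 from MPP1 and was called in HSC with 9 fragments. In MPP2, 1 of the 10 shared peaks did so. The part of depth in the absence of the 8 sites from HSC was not tested. A peak over a promoter window was present for 24.3% of windows in MPP1 and 22.9% in MPP2.

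The H2-K1 letters printed above hold the hexamer AGGTCA 138 to 133 bases before the start and GGGTCA 69 to 64 bases before it. The GGGTCA lay inside the peak of both MPP libraries. The AGGTCA lay inside the MPP1 peak, and 5 bp beyond the edge of the MPP2 peak. Class I genes are close copies of each other, and how reads that fit several of them were treated is not given in the sources used here, so the assignment of this signal to H2-K1 is uncertain. The same holds for the class I pseudogene H2-K2, where the MPP libraries shared a peak at 33978735 to 33979075 in replicate 1 (fold 4.05) and 33978714 to 33979228 in replicate 2 (fold 7.22).

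The other sites common to the MPP libraries were spread over the locus. At B3galt4, a galactosyltransferase gene, with Rps18, a ribosomal protein gene, within 1 kb, the folds were 4.34 and 6.82 in MPP replicates 1 and 2. The summits lay 41 and 24 bp inside the B3galt4 start. At the start of the lncRNA gene AA388235 the folds were 3.95 and 5.70, and inside Col11a2 they were 4.68 and 6.68. A peak in H2-DMa, which helps load MHC class II molecules, had folds of 3.97 and 6.85. The remaining pair of sites lay between genes, 39.6 kb before Rxrb with folds of 3.59 and 3.68, and 41.2 kb after it with folds of 5.43 and 6.69.

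Sites of a single MPP library in the Rxrb locus numbered 8 in replicate 1 and 2 in replicate 2. Those of replicate 1 included a peak with a fold of 6.385 at 33968437 to 33968934, 62.9 kb before Rxrb and past the end of Vps52, a vesicle tethering gene. The others lay at Wdr46, at AA388235, at the lncRNA gene Gm31082, at H2-Ke6, at H2-Oa with BC051537, and, as a pair of peaks, in H2-DMa, with folds of 2.91 to 4.70. In replicate 2 the second single-library peak, at the divergent starts of Wdr46 and the chaperone gene Pfdn6, had a fold of 4.24. Of the 14 protein-coding neighbours, none had a peak in the gene or within 1 kb in HSC, 10 had one in MPP1 and 9 in MPP2. These counts include Rgl2 in both MPP libraries, a gene at the edge of the locus whose peaks lay outside the 100 kb. Over all protein-coding genes the shares were 12.7%, 55.0% and 47.3%. Vps52 and Brd2 had none in any library. Neighbours can share a peak, so these genes are not independent counts.

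Rxrg was the least marked locus. Rxrg (gene ID 20183) lies on the plus strand of chromosome 1 from 167598362 to 167639623 (41.3 kb), with Lrrc52, which encodes a leucine-rich repeat protein, 131.6 kb before it and Lmx1a, a homeobox gene of neural development, 48.6 kb after it. HSC had no peak in the locus, as was so for 53.45% of protein-coding genes, and the nearest HSC peak lay 289.6 kb before the gene. MPP1 had 5 peaks and MPP2 had 1, where the median gene had 5 and 3. Among the 10168 genes with 1 to 4 coding neighbours within 100 kb, as Rxrg has, 58.6% had fewer peaks in MPP1 and 22.0% in MPP2.

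**Figure D4:**
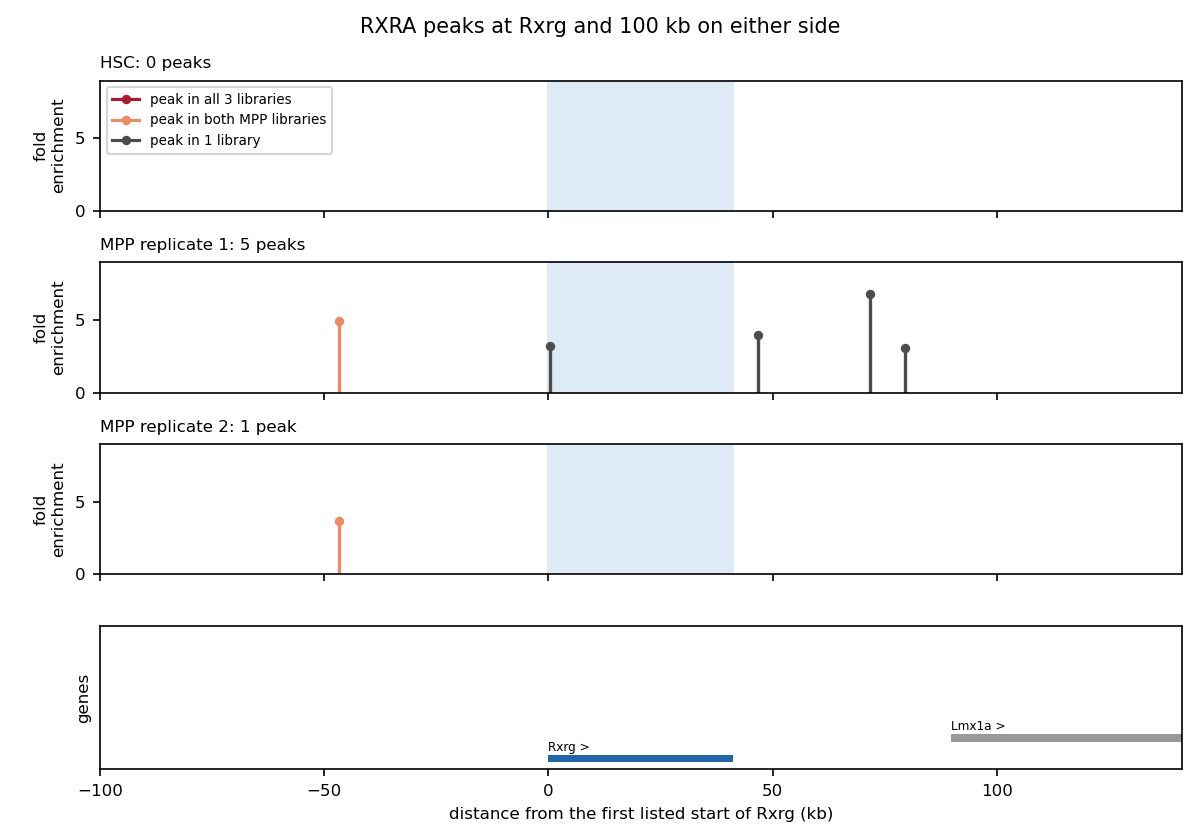
Authors' fold enrichment (vertical axis) of each RXRA peak at its summit, by distance in kb from the first listed Rxrg start, in HSC, MPP1 and MPP2, with genes below (arrowheads give strand, the shaded band is Rxrg). HSC has no peak, and 1 site, 46.4 to 46.5 kb before the gene, is a peak in both MPP libraries.

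The only RXRA peak within 1 kb of a listed start of any of the receptor genes was at Rxrg in MPP1. It ran from 167598632 to 167598865, began 270 bp after the first start, and was weak, with a fold of 3.22, a pileup of 12 (6.20 to 21.0) and a q of 0.0102. It stood above 6.41% of the peaks of its list. Its HSC-scaled pileup was 2.52 fragments, and scaled to MPP2 it was 4.52, both below the lowest pileup called in those libraries. The part of depth in its absence from HSC and MPP2 was not tested.

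The site that both MPP libraries shared near Rxrg lay 46.5 kb before the gene in MPP1 and 46.4 kb in MPP2. Its peak ran from 167551612 to 167551854 in MPP1, with a fold of 4.91 from 19 fragments at the summit (11.4 to 29.7). In MPP2 it ran from 167551571 to 167551983, with a fold of 3.68 from 7 fragments at the summit (2.81 to 14.4), above 2.075% of its list. The strongest peak of the locus was in MPP1 alone, at 167669848 to 167670203, with a fold of 6.81 from 26 fragments at the summit (17.0 to 38.1). It lay 30.2 kb after the end of Rxrg on the side of Lmx1a. Scaled to MPP2 it would have had 9.80 fragments, above the lowest pileup called there, and that list held no peak at the site. The other peaks after the gene, 5.2 and 38.1 kb from its end, had folds of 3.94 and 3.10.

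**Figure D5:**
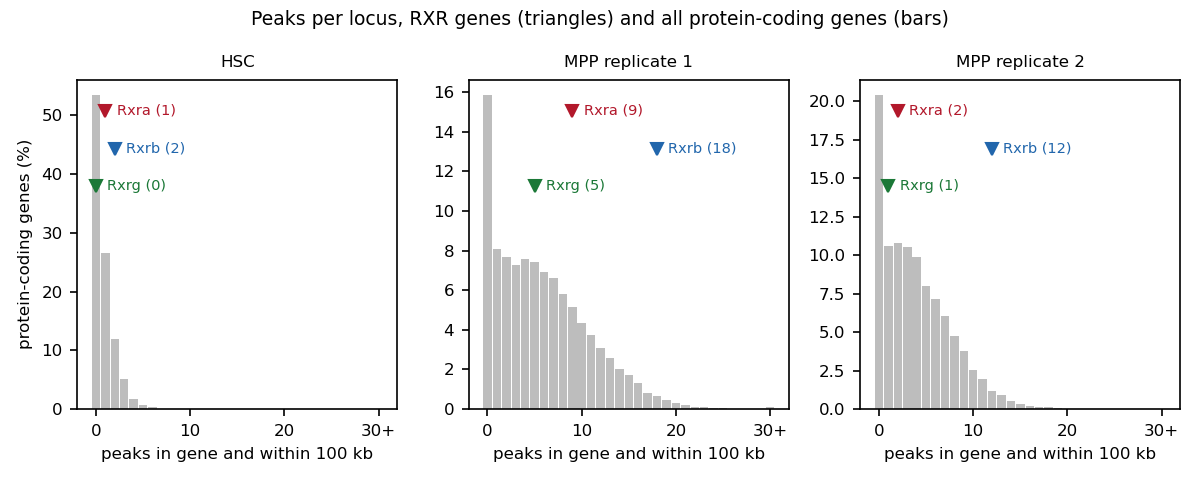
Share of protein-coding genes (vertical axis, %) by number of RXRA peaks in the gene and within 100 kb (horizontal axis; the last bar is 30 or more), in HSC, MPP1 and MPP2. Triangles mark the counts of Rxra, Rxrb and Rxrg (1, 2 and 0 in HSC, 9, 18 and 5 in MPP1, and 2, 12 and 1 in MPP2); their height has no meaning.

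Across the 3 loci, 35 sites were found, of which 3 were peaks in all 3 libraries, 9 in MPP1 and MPP2 alone, 20 in MPP1 alone and 3 in MPP2 alone. No site was a peak in HSC alone. All 3 HSC peaks at the receptor loci were shared with both MPP libraries, where 61.6% of all HSC peaks were, and with so few peaks the exact 95% binomial interval, 29.2% to 100%, holds that share. Of the MPP1 peaks, 1 of 9 at Rxra, 10 of 18 at Rxrb and 1 of 5 at Rxrg overlapped a replicate 2 peak, against 44.9% of all peaks of that library. The intervals were 0.281% to 48.2%, 30.8% to 78.5% and 0.505% to 71.6%, which overlap each other and hold the share of all peaks. Of the MPP2 peaks, 1 of 2, 10 of 12 and 1 of 1 overlapped a replicate 1 peak, against 68.1% of all. At least 1 site shared by the MPP libraries was present at each receptor locus, as at 74.5% of all protein-coding genes.

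Order by peak number was Rxrb, Rxra and Rxrg in each of the libraries. By peaks per 100 kb, which takes the length of the locus into account, Rxrb had 0.968 in HSC, 8.71 in MPP1 and 5.81 in MPP2. Rxra had 0.349, 3.14 and 0.697, and Rxrg had 0, 2.07 and 0.4145. The median protein-coding gene had 0, 2.01 and 1.38. Inside the gene itself the order was another, with Rxra at 1, 6 and 1 peaks, Rxrg at 0, 1 and 0, and Rxrb at 0 in each library.

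Genes of the receptors that pair with RXR were read in the same way. Of 16 partner receptor genes, 11 had a peak in the gene or within 100 kb in HSC, and all 16 had one in MPP1 and in MPP2, beside 46.6%, 84.2% and 79.6% of all protein-coding genes. Their median count was 1 in HSC, 11.5 in MPP1 and 6.5 in MPP2, beside 0, 5 and 3 over all protein-coding genes. Peak number within 100 kb moved with gene number, as given for Rxrb, and the part of gene number in these counts was not tested. Nr1i3, for example, had 13 and 12 peaks within 100 kb in MPP1 and MPP2 and none in the gene or within 1 kb. In the gene or within 1 kb the numbers were 6, 13 and 13, beside 12.7%, 55.0% and 47.3% of all genes. The partners marked within 1 kb in all 3 libraries were led in HSC by Ppard, a fatty acid receptor, with folds of 7.51 in HSC and 6.63 and 8.02 in MPP replicates 1 and 2. Pparg, the adipocyte receptor, had 7.11 in HSC and 4.39 and 4.67 in MPP. Nr4a1, an orphan receptor induced by stimulation, had 6.68 in HSC and 5.17 and 6.92 in MPP. Nr1h2, which encodes LXR beta, had 6.26 in HSC and 8.03 and 7.325 in MPP. Each value is the highest fold within 1 kb of the gene in its list, so the peaks need not be at the same site. A peak in the gene that was shared by all 3 libraries was found at 1 of the 16, Ppard, a share of 6.25% beside 7.14% of all protein-coding genes. In the gene or within 1 kb it was 2 of the 16, Ppard and Nr1h2, 12.5% beside 8.1% of all. Within 100 kb it was 8 of the 16, 50% beside 34.4% of all.

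Genes that supply and clear the retinoid ligand came as a second list. Of 13 genes for retinoid uptake, retinoic acid synthesis, carriage and breakdown, 5 had a peak in the gene or within 100 kb in HSC, 13 in MPP1 and 9 in MPP2, beside 46.6%, 84.2% and 79.6% of all protein-coding genes. The medians were 0, 5 and 2, against 0, 5 and 3 over all genes. In the gene or within 1 kb the numbers were 0, 4 and 1, beside 12.7%, 55.0% and 47.3% of all genes. Cyp26b1, which breaks down retinoic acid, was the 1 marked in both MPP libraries, with folds of 6.16 and 5.53.

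The genes whose peak counts within 100 kb were most like those of the receptors differed for each. The likeness was the summed absolute difference of log2(1 + peaks) over the 3 libraries, with ties ordered by gene length, and it rests on 3 libraries. For Rxra, 19 genes had identical counts of 1, 9 and 2, the nearest in length being Ugt1a6b and Ugt1a7c, both on chromosome 1, and Wnt9b. For Rxrb, Fos and Mllt6 had identical counts of 2, 18 and 12, and Tmed10 followed with 2, 19 and 12. Fos and Tmed10 are both on chromosome 12. Whether like genes on the same chromosome counted the same peaks was not examined. For Rxrg, 98 genes had identical counts of 0, 5 and 1, the nearest in length being Cdrt4, Anks6 and Gm13212.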

How the data were processed

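RXRA CUT&RUN peaks were analysed in 1 HSC and 2 MPP libraries, grouped by the labels. The submitters' processing notes list MACS2 2.1.4, Bowtie2 2.3.4.1, cutadapt 1.9.1, Trim Galore 0.4.2 and mm10; settings and any control library are not given there. The authors deposited 1 peak list per library, without a header. The deposited fold enrichment is a ratio to local background, and its form is that of MACS2, which the submitters' processing notes list without a role. The deposited −log10 p and −log10 q values have the same form and, by the listed tools, the same origin. The deposited score follows the −log10 q and was not used further. The weakest q was 0.0995 in HSC, 0.0971 in MPP1 and 0.0993 in MPP2.

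Summit pileup and local background were solved from the fold, taken as (pileup + 1)/(background + 1), and the Poisson p. A whole pileup within 0.001 in −log10 p was found for 99.98% of HSC, 100% of MPP1 and 99.99% of MPP2 peaks. The lowest background stood for the genome. Scaling a pileup by these backgrounds ignores local background, and the lowest pileup was called only where that was low.

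Genes came from a RefSeq table (GRCm38.p6), and starts and strands from its 300-base promoter windows. Overlap was at least 1 bp, checked against bedtools 2.31.1, and the recovery of pileups and overlaps was tested on simulated data. Python 3.11.15 with scipy 1.17.1 was used. Depth is known only through these pileups. The members and lists were chosen with earlier results of these data known.

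Genes named are the receptors, genes within 1 kb of a peak of their loci, the nearest coding gene on either side, list genes marked within 1 kb in all 3 libraries (up to 4 by HSC fold), and the 3 most like each receptor. Cyp26b1, Nr1i3, Rgl2, Vps52 and Brd2 are named outside this rule. Cyp26b1, Nr1i3 and the groupings by length and gene number were chosen after their values were seen. Alternatives were other windows, summit position, stricter q, list length, overlap and left-out MPP libraries. The genome sequence under the peaks was not used here.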

Additional observations from a re-analysis of the deposited data

How the results depend on the processing

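Of 96 recomputed counts over 15 results, 58 stayed within 1.5 times the main count and 38 did not. In the gene body alone, Rxrb had 0 peaks in HSC, 0 in MPP1 and 0 in MPP2, Rxra had 1 in MPP2, and Rxrg had 1 and 0 in MPP replicates 1 and 2. With 50 kb on either side, Rxrb had 0, 7 and 5 and Rxra had 1 in MPP2. With 200 kb, Rxra had 2 in HSC and 5 in MPP2, Rxrb had 5, 36 and 24, and Rxrg had 2 in MPP2. At q of at most 0.01, Rxrg had 3 and 0 peaks in MPP replicates 1 and 2 and 0 shared. At q of at most 1e-05, Rxra had 0, 4 and 1 peaks and 0 sites in all 3 libraries, so its shared site is lost through the HSC peak. At that q, Rxrb had 1 peak in HSC, 1 in all 3 libraries and 6 shared by the MPP libraries, and Rxrg had 2 and 0 in MPP and 0 shared. With each MPP list held to 4047 peaks of highest fold, Rxra had 1 and 1 peaks, Rxrb 2 and 2 with 1 shared and 1 in all 3 libraries, and Rxrg 1 and 0 with 0 shared. The Rxra site stayed in all 3 libraries at that length. Placing peaks by summit, and sharing by 50% coverage or a gap of 1 kb, left every count within 1.5 times. Without either MPP library, HSC peaks shared with the one left numbered 1 to 1 at Rxra, 2 to 2 at Rxrb and 0 to 0 at Rxrg. These counts could not change, because every HSC peak of the loci overlapped both MPP libraries. The HSC counts of 0 at Rxrg could likewise not fall under a stricter setting. Both kinds are among the 58, so that number overstates how stable the counts are. No paired analysis was possible with 1 HSC library, and no result comes from a test. Most MPP1 peaks of these loci scale, without counting error, to fewer fragments than the lowest HSC pileup, and the part of depth in the HSC counts was not tested.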
